A study of Oryctolagus cuniculus with 20 samples.

Results

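Condylar cartilage of the rabbit jaw joint was compared between 2 weeks and 1 week after surgical internal derangement of that joint. The comparison used 8 of the 20 arrays of the series, chosen by their labels alone: the 4 arrays of the 2-week group and the 4 arrays of the 1-week group. Every array was hybridised with Cy3-labelled cRNA made from total RNA of 1 condylar cartilage sample from a male rabbit (Oryctolagus cuniculus) aged 6 months. In the 2-week group the left joint had been deranged 2 weeks before sampling, and in the 1-week group 1 week before. Both groups therefore carry the operation, no sham-operated group is labelled, and no strain, allele or drug is named. Untreated controls and rabbits sampled 4 and 8 weeks after derangement, 4 arrays each, enter the model and are given beside some results. The design text counts 16 operated and 4 untreated rabbits, so each array was taken as 1 animal.

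The condylar cartilage covers the head of the mandible. Its chondrocytes lay down a matrix of type II collagen and aggrecan under the control of the transcription factor SOX9, and deeper cells enlarge, switch to type X collagen and give way to bone. Indian hedgehog and parathyroid hormone-related protein set the pace of that switch, and WNT signals and their secreted antagonists modulate it. In internal derangement the articular disc no longer sits in its normal place between the condyle and the skull, so that the cartilage is loaded differently.

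Each of these groups was scanned on its own day and its own slide, so scan day, slide and time after derangement cannot be told apart between them. The 2-week arrays shared their scan day with the controls, and the 1-week arrays shared theirs with the 4-week and 8-week arrays. The 75th percentile of signal averaged 370.8 ± 73.6 in the 2-week group and 336 ± 150 in the 1-week group (SD, n = 4 each, exact permutation p = 0.657, two-sided). The share of spots well above background averaged 56.26 ± 2.69% in the 2-week group and 59.7 ± 8.24% in the 1-week group (exact permutation p = 0.429, two-sided, smallest possible 0.0286). The median SD of a probe over the 4 arrays was 0.228 log2 units in the 2-week group and 0.318 in the 1-week group, and the fit weights the groups for this. Replicate 4 of the 1-week group had the lowest signal of the 8 arrays. Of the labelled tissue's markers on the array, COL2A1 was far above background on all 8 arrays, while SOX9 was well above background on all 4 of the 1-week arrays and on 0 of the 2-week arrays.

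Levels below are log2 intensities relative to the 75th percentile of each array, so that a level of 0 is the brightness of that percentile, and a difference is the 2-week level minus the 1-week level. A probe or gene is called where limma's adjusted p (Benjamini-Hochberg) is under 0.05. Of 25365 probes measured in either group, 1587 were called (6.26%). The calls split into 424 probes that rose (1.67%) and 1163 that fell at 2 weeks (4.59%). Over all kept probes the arrays of the groups did not overlap for 1715 probes higher (6.76%) and 2292 lower (9.04%) at 2 weeks. Among 697 named genes, 64 were called (9.18%), of which 15 rose (2.15%) and 49 fell (7.03%). The arrays of the groups did not overlap for 132 named genes (18.9%), 58 of them higher (8.32%) and 74 lower (10.6%) at 2 weeks. The count of called probes was 777 without 1-week replicate 2 and 865 without 1-week replicate 3, and limma called 0 probes after a different background correction (normexp), where 606 probes had an unadjusted p under 0.05.

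**Figure D1:**
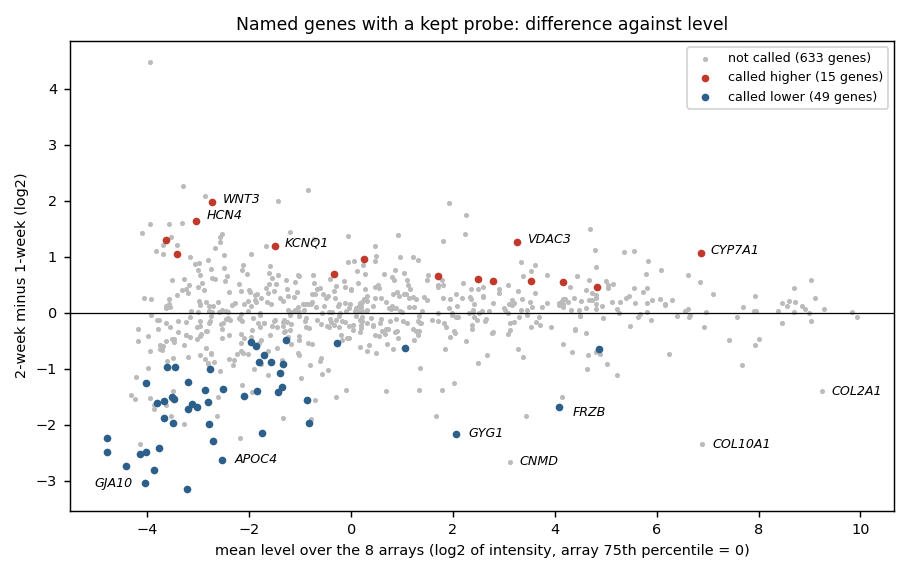
Each point is 1 of the 697 named genes, with its mean level over the 8 arrays on the x axis (log2, 75th percentile of the array = 0) and its 2-week minus 1-week difference on the y axis (log2). The 49 genes called lower (blue) lie mostly at dim levels on the left, the 15 called higher (red) span the range of levels, and the cartilage genes CNMD, COL10A1 and COL2A1 show differences of -2.66, -2.35 and -1.4 without a call.

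The fallen genes were mostly dim. The 49 fallen genes had a median difference of -1.56 (-0.49 to -3.15), and 22 of them were well above background on all 8 arrays. Another 15 were not so on any 2-week array, so that their differences have only a bound. These 15 passed the filter through the 1-week group alone, which favoured falls. The 15 risen genes had a median difference of 0.97 (0.46 to 1.98), 11 of them well above background on all 8 arrays. The remaining 4 were so on 2 of the 1-week arrays. They passed the filter through the 2-week group alone, which favoured rises. Over all 1163 fallen probes the median level was -3.32 in the 2-week group and -1.95 in the 1-week group. The same probes had a median level of -3.35 in controls, -2.32 in the 4-week group and -2.32 in the 8-week group. These probes thus lay near the control level on the arrays of the 2-week scan day and above it on all groups of the 1-week scan day. The fallen probes had a median GC content of 45% (quartiles 43.3 and 55%), against 43.3% (40 and 45%) over all kept probes. For the 424 risen probes the median levels were 0.59 at 2 weeks and -0.21 at 1 week, with 0.44 in controls, 0.3 at 4 weeks and 0.15 at 8 weeks.

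The lowest p among named genes belonged to GJA10, a gap junction connexin known in mouse from horizontal cells of the retina. Its level was -5.91, -5.48, -5.31 and -5.56 on the 2-week arrays and -2.65, -2.67, -2.66 and -2.1 on the 1-week arrays. The groups were far apart, with all 2-week arrays not well above background and all 1-week arrays above it. GJA10 was at least 2.4-fold lower at 2 weeks (adjusted p = 5.43e-08), and the call held without any 1 array. This gene has 6 probes on the array, and only 1 of them passed the filter. It passed through the 1-week group alone, which favoured a fall. The passing probe and a neighbour that did not pass are shown because they share 30 bases (in capitals), yet the neighbour was well above background on 1 array of each group:
GJA10, probe that passed: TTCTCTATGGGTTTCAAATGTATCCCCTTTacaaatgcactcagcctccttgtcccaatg
GJA10, probe that did not pass: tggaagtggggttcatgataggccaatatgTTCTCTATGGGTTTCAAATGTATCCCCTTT
The mean level of the neighbour was -5.15 ± 1.2 at 2 weeks and -4.6 ± 2.12 at 1 week (SD, n = 4 each). In the other groups GJA10 averaged -5.53 ± 0.24 in controls, -3.02 ± 0.09 at 4 weeks and -3.08 ± 0.13 at 8 weeks, so the dim groups were those of the 2-week scan day and the bright groups those of the 1-week scan day.

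The 12 largest called falls without overlap were in genes of varied function. APOC4, an apolipoprotein made mainly by liver, had levels of -4.08, -3.53, -3.68 and -4.06 at 2 weeks and -2.03, -0.7, -1.93 and -0.22 at 1 week. Each 2-week array lay below each 1-week array, although only 1 of the 2-week arrays was well above background. APOC4 fell by 2.62 ± 0.33 (SE, adjusted p = 8.05e-05). SERPINB2, plasminogen activator inhibitor type 2, was at least 2.5-fold lower at 2 weeks (adjusted p = 0.000529). Its levels ran from -6.33 to -4.26 at 2 weeks, none above background, and from -2.93 to -1.7 at 1 week. COL4A3, a basement membrane collagen chain, was at least 1.19-fold lower (adjusted p = 0.0211). Its call was lost without 2-week replicate 3 or without 1-week replicates 2 or 3.

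CACNA1E, the pore subunit of R-type calcium channels, had levels of -4.39, -3.9, -3.47 and -3.64 at 2 weeks and -2.19, -1.51, -1.81 and -0.75 at 1 week. It fell by 2.29 ± 0.38 (SE, adjusted p = 0.000928), with no overlap and with 1 of the 2-week arrays above background. SLC4A4, a sodium bicarbonate cotransporter, fell by 2.14 ± 0.46 (adjusted p = 0.00781) and was measurable on all 8 arrays. All 4 of its passing probes were lower, and its call was lost without 1-week replicate 2. ADRA1D, the alpha-1D adrenergic receptor, was at least 1.66-fold lower at 2 weeks (adjusted p = 0.000653). VIPR1, a receptor of vasoactive intestinal peptide, was at least 2.34-fold lower (adjusted p = 0.0201). PLN, phospholamban, which restrains the calcium pump of cardiac and slow muscle, was at least 1.08-fold lower (adjusted p = 0.0244). VIPR1 and PLN were each well above background on 3 of the 4 1-week arrays. The calls of VIPR1 and PLN were lost without 2-week replicate 2 or without 1-week replicates 2 or 3, and that of PLN also without 2-week replicate 3.

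GYG1, glycogenin, the protein primer on which glycogen is built, was the brightest of the 12 largest falls. Its levels were 1.37, 0.64, 0.86 and 1.06 on the 2-week arrays and 2.41, 3.08, 2.47 and 4.59 on the 1-week arrays. Every 2-week array lay below every 1-week array, and replicate 4 of the 1-week group stood well above its group. GYG1 fell by 2.16 ± 0.45 (SE, adjusted p = 0.00628) and kept its call without any 1 array. Its mean in the 8-week group, scanned on the same day as the 1-week group, was 0.9 ± 0.2, against 1.01 ± 0.42 in controls and 2.11 ± 0.76 at 4 weeks. GYG1 was not called between the 1-week group and the 4-week or 8-week group. CASP14, a caspase of keratinocyte differentiation, was at least 1.99-fold lower at 2 weeks (adjusted p = 0.000683). PPARA, a lipid-sensing transcription factor that turns on fatty acid breakdown, fell by 1.99 ± 0.5 (adjusted p = 0.0234). Its 4 passing probes were all called lower (-3.56 to -1.99), while the other 11 of its 15 probes did not pass the filter. The PPARA call was lost with the 8 arrays alone, without 2-week replicates 3 or 4 or without 1-week replicates 2 or 3. With dim signals raised to the lowest measured level of their array, the calls of ADRA1D, CASP14, COL4A3 and PLN were lost (adjusted p = 0.133, 0.085, 0.746 and 0.782).

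**Figure D2:**
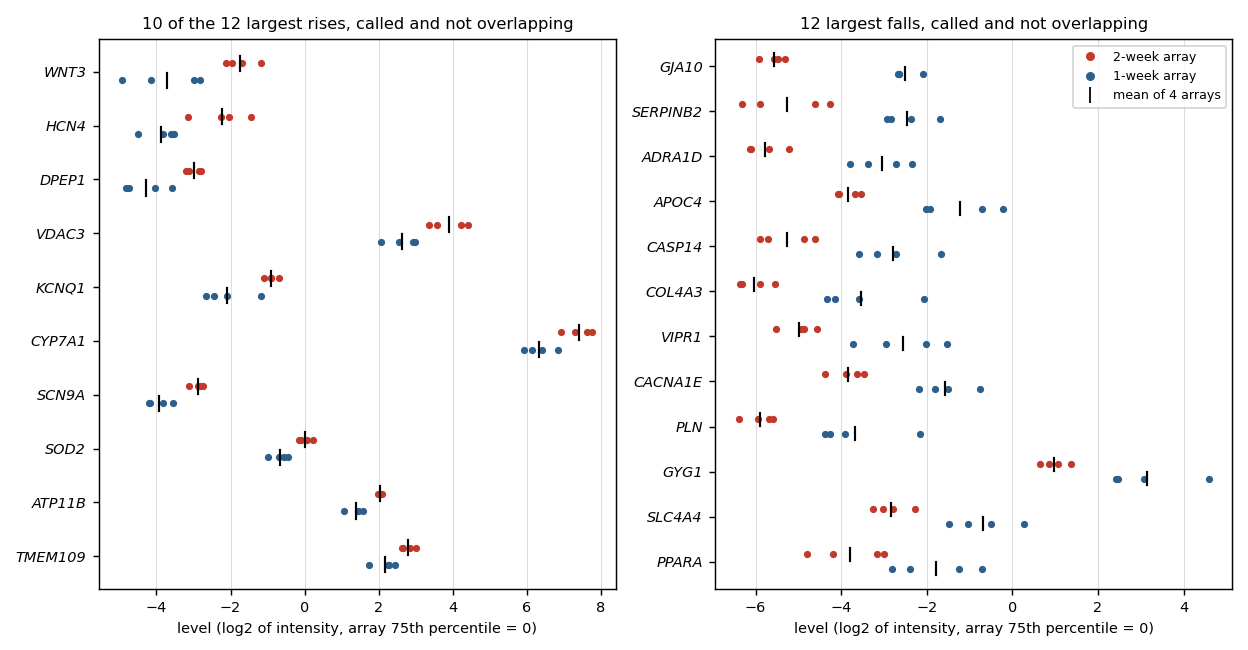
Level of each array (log2, 75th percentile of the array = 0, x axis) for 10 of the 12 largest rises (left) and 12 largest falls (right) among called genes whose groups do not overlap, with red 2-week points above blue 1-week points and a bar at each mean. Of the falls, 10 lie below a level of 0 on all arrays, the exceptions being GYG1 (0.64 to 1.37 at 2 weeks, 2.41 to 4.59 at 1 week) and SLC4A4 (0.27 on 1-week replicate 4), whereas CYP7A1 stays between 5.93 and 7.77 in both groups.

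The rises were smaller. Some were in membrane channels, but channel genes also fell. Grouped by symbol after the values were seen, 1 of 15 potassium channel genes rose and 4 fell. Of 4 sodium channel genes 1 rose and 1 fell, and of 8 calcium channel genes 0 rose and 1 fell. Over all named genes 2.15% rose and 7.03% fell. CACNA1E, KCNE1 and KCNJ11 among the falls passed the filter through the 1-week group alone, which favoured falls. SCN9A among the rises passed through the 2-week group alone, which favoured a rise. The counts are not evidence of a change in channel genes as a set. KCNQ1, the pore subunit of a slow delayed-rectifier potassium channel, had levels of -1.1, -0.91, -0.9 and -0.7 at 2 weeks and -2.45, -2.67, -2.1 and -1.17 at 1 week. The highest 1-week array, replicate 4, came close to the lowest 2-week array without overlapping it. KCNQ1 rose by 1.19 ± 0.22 (SE, adjusted p = 0.00197). It kept the call without any 1 array and lost it when the 8 arrays were fitted alone (adjusted p = 0.0717). It is read by 1 probe, printed here because this gene also differed within a scan day:
KCNQ1: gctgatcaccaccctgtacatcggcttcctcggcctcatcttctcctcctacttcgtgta
At 4 weeks, on the scan day of the 1-week arrays, KCNQ1 was 1.77 ± 0.21 above the 1-week level (adjusted p = 0.000297), and at 2 weeks it was 0.61 ± 0.18 above the control level (adjusted p = 0.207). The comparison of 4 weeks with 1 week uses the same 1-week arrays, and that of 2 weeks with control the same 2-week arrays.

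DPEP1, a membrane dipeptidase of kidney brush border, had levels of -2.81, -3.2, -2.86 and -3.11 at 2 weeks and -3.57, -4.83, -4.03 and -4.73 at 1 week. The groups did not overlap, and only 2 of the 1-week arrays were well above background. DPEP1 rose by 1.3 ± 0.29 (SE, adjusted p = 0.00991), a call lost without 1-week replicate 2. At 4 weeks it was 1.34 ± 0.28 above the 1-week level (adjusted p = 0.0348), and at 2 weeks it was 0.29 ± 0.23 above controls (adjusted p = 0.802). WNT3, a secreted WNT ligand, rose by 1.98 ± 0.46 (adjusted p = 0.0132). Its levels ran from -2.11 to -1.18 at 2 weeks and from -4.92 to -2.83 at 1 week, where 2 of the 4 arrays were above background. The pacemaker channel HCN4 rose by 1.64 ± 0.41 (adjusted p = 0.0228) and the sensory-neuron sodium channel SCN9A by 1.05 ± 0.3 (adjusted p = 0.0425), each again above background on 2 of the 1-week arrays. The call of WNT3 was lost without 1-week replicate 2, that of HCN4 without 5 of the 8 arrays and that of SCN9A without 6.

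Of the rises measured on all 8 arrays, 2 were in genes of mitochondria and of oxidative stress. SOD2, the superoxide dismutase of mitochondria, had levels of 0.07, -0.1, -0.15 and 0.23 at 2 weeks and -0.7, -0.45, -0.56 and -0.99 at 1 week. The groups did not overlap, and SOD2 rose by 0.69 ± 0.16 (SE, adjusted p = 0.012), a call kept without any 1 array. All 5 of its probes were higher. VDAC3, an anion channel of the mitochondrial outer membrane, rose by 1.26 ± 0.3 (adjusted p = 0.0179), a call lost without 5 of the 8 arrays. SOD2 averaged 0.08 ± 0.13 in controls, -0.09 ± 0.06 at 4 weeks and -0.62 ± 0.24 at 8 weeks. Neither the 4-week nor the 8-week group was called against the 1-week group for SOD2.

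The other rises were in genes of varied function. CYP7A1, the rate-limiting enzyme of bile acid synthesis, was the brightest. It had levels of 6.91, 7.77, 7.62 and 7.29 at 2 weeks and 6.13, 5.93, 6.4 and 6.83 at 1 week, with no overlap but a small gap. CYP7A1 rose by 1.07 ± 0.26 (SE, adjusted p = 0.0161), from a single probe, and lost the call without 1-week replicates 1, 2 or 3. ATP11B, a phospholipid flippase, rose by 0.65 ± 0.16 (adjusted p = 0.0177) and TMEM109 by 0.61 ± 0.15 (adjusted p = 0.0198), both lost without 1-week replicates 2 or 3. Among all these rises, the calls of WNT3, CYP7A1, VDAC3 and TMEM109 were lost with the 8 arrays alone. Those of DPEP1, WNT3, HCN4 and SCN9A were lost with dim signals raised to the lowest measured level.

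**Figure D3:**
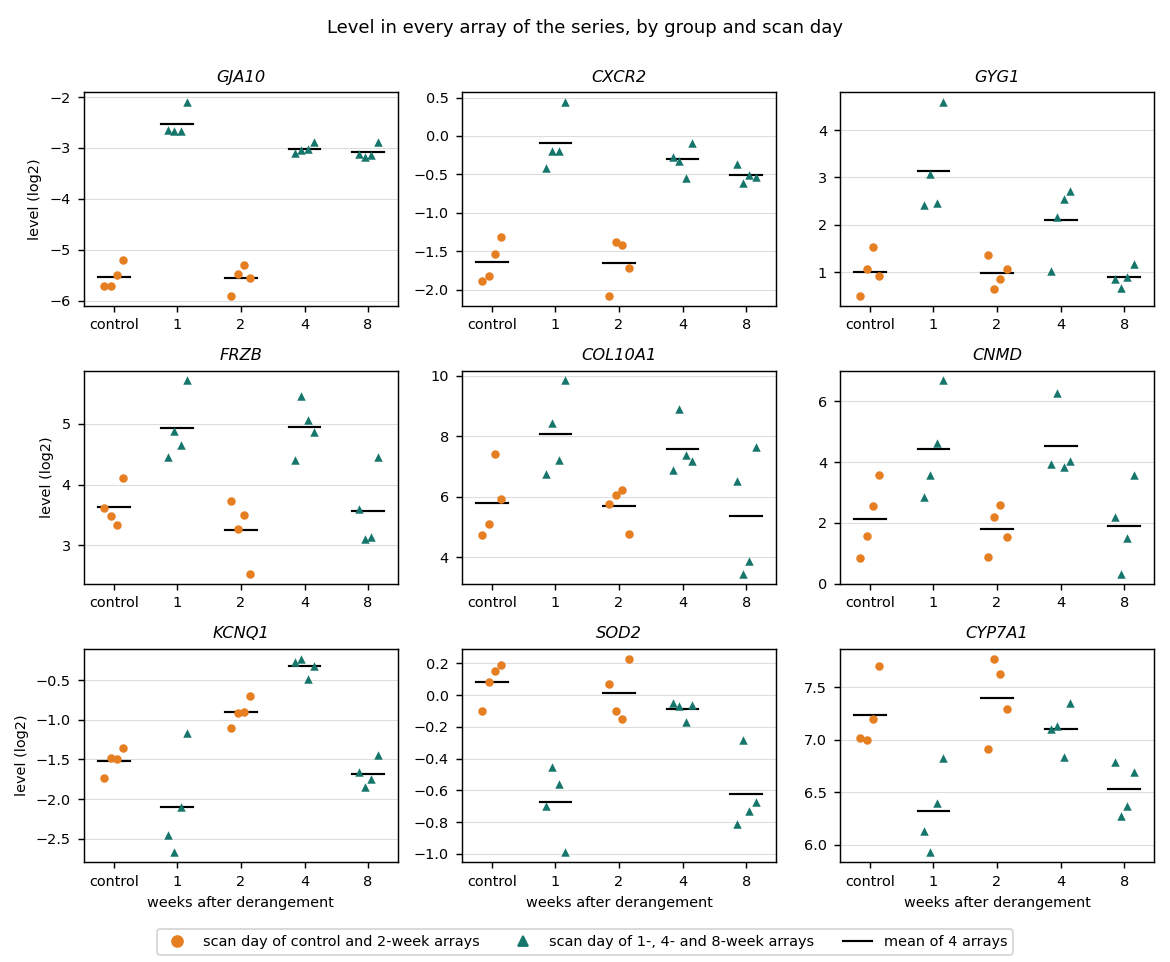
Levels (log2, y axis) of 9 genes on all 20 arrays, by weeks after derangement (x axis, with untreated controls on the left); orange circles and green triangles mark the 2 scan days and lines the group means. GJA10 and CXCR2 split by scan day in all groups. COL10A1, CNMD and FRZB have means of 5.38, 1.89 and 3.57 at 8 weeks, without a call against the 1-week group, and KCNQ1 is highest at 4 weeks (-0.33).

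Within the scan day of the 1-week arrays, the 4-week group differed from it in 161 probes (0.635%) and 3 named genes (0.43%). Besides KCNQ1 and DPEP1, the third was YBX1, a cold-shock domain protein that binds RNA, named after its values were seen. YBX1 levels averaged 4.55 ± 0.09 at 2 weeks and 5.18 ± 0.19 at 1 week (SD, n = 4 each), with 4.64 ± 0.13 in controls and 4.55 ± 0.13 at 4 weeks. It fell by 0.64 ± 0.12 at 2 weeks against 1 week (SE, adjusted p = 0.00295), and its 4-week minus 1-week difference was -0.63 ± 0.12 (adjusted p = 0.0158). Within the other scan day, the 2-week group differed from controls in 93 probes (0.367%) and 6 named genes (0.861%). OVGP1, an oviduct glycoprotein, and tyrosine hydroxylase, TH, which makes the precursor of dopamine and noradrenaline, were among these 6. OVGP1 rose by 1.21 ± 0.22 at 2 weeks against control (adjusted p = 0.0214) and fell by 1.48 ± 0.28 at 2 weeks against 1 week (adjusted p = 0.00237). TH was at least 1.86-fold lower at 2 weeks than at 1 week (adjusted p = 0.00545) and was not well above background on any 2-week array. The TH call was lost with dim signals raised to the lowest measured level (adjusted p = 0.125). The 8-week group, scanned with the 1-week group, differed from it in 1 probe (0.00394%) and 0 named genes. Across scan days, the 1-week group differed from controls in 1987 probes (7.83%) and 79 named genes (11.3%).

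The markers of hyaline cartilage lay lower at 2 weeks, but none passed the test. Of 19 listed genes, 4 are on the array and all 4 were measured, and in each of them the 2-week arrays lay below the 1-week arrays. Over all 697 named genes, 74 lay wholly lower in this way (10.6%). SOX9 passed the filter through the 1-week group alone, which favoured a lower value at 2 weeks. The median difference of the 4 genes was -1.52, against 0.02 over all 697 named genes. COL2A1, the main collagen of cartilage, had levels of 8.69, 8.92, 8.97 and 7.58 at 2 weeks and 8.98, 9.9, 9.66 and 11.23 at 1 week. The groups were separated by a hair, and the highest value was that of 1-week replicate 4. The COL2A1 difference was -1.4 ± 0.61 (SE, adjusted p = 0.202), and the 8 probes of the gene ran from -2.23 to -1.4 with none called.

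In the other cartilage markers, too, every 2-week array lay below every 1-week array. CNMD, chondromodulin, a cartilage glycoprotein that keeps blood vessels out, had levels of 0.86, 2.18, 2.58 and 1.52 at 2 weeks and 2.86, 3.59, 4.63 and 6.69 at 1 week, a difference of -2.66 ± 0.99 (adjusted p = 0.128). ACAN, aggrecan, had levels of -3, -2.4, -2.33 and -2.89 at 2 weeks and -1.93, -1.26, -1.91 and 0.11 at 1 week, a difference of -1.41 ± 0.42 (adjusted p = 0.0581). SOX9 averaged -4.47 ± 0.63 at 2 weeks and -2.82 ± 0.9 at 1 week (SD, n = 4 each), at least 1.93-fold lower in measured level (adjusted p = 0.0634). In each of these genes 1-week replicate 4 was the highest array. Without it the differences were -0.97 for COL2A1, -1.91 for CNMD, -0.95 for ACAN and -1.23 for SOX9, with adjusted p from 0.0784 (SOX9) to 0.287 (COL2A1). CNMD averaged 2.13 ± 1.18 in controls, 4.52 ± 1.17 at 4 weeks and 1.89 ± 1.36 at 8 weeks. Neither the 4-week nor the 8-week group was called against the 1-week group for CNMD.

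The SOX9 reading rests on 1 probe, shown because it decides whether the transcription factor counts as measured:
SOX9: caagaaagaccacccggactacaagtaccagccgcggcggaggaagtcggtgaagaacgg
Its GC content was 60%, above the upper quartile of 45% over all kept probes.

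Genes of chondrocyte hypertrophy and bone did not share a direction. Of 10 measured genes, 5 had negative and 5 positive differences, with a median of -0.23 and none called. In 4 genes the 2-week arrays lay wholly below the 1-week arrays, as they did in 10.6% of all named genes. COL10A1, type X collagen of hypertrophic chondrocytes, had levels of 5.77, 6.07, 6.24 and 4.78 at 2 weeks and 6.75, 8.43, 7.23 and 9.85 at 1 week. The 1-week arrays spread over more than 3 log2 units with replicate 4 on top. The difference was -2.35 ± 1.1 (SE, adjusted p = 0.233), and -1.76 without 1-week replicate 4 (adjusted p = 0.297). All 6 of its probes were lower (-2.51 to -2.35). They read the same RNA on the same arrays, so their likeness is not independent support. The following pair is shown because the probes come from separate transcript records and share no stretch:
COL10A1, brightest probe: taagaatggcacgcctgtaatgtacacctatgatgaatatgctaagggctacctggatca
COL10A1, probe of the second record: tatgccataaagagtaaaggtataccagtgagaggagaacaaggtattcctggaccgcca
The brightest probe averaged 5.71 ± 0.65 at 2 weeks and 8.06 ± 1.38 at 1 week, and the second 0.05 ± 0.53 at 2 weeks and 2.56 ± 1.62 at 1 week (SD, n = 4 each).

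The hedgehog ligand IHH, its neighbour in the growth-plate loop PTH1R and the pyrophosphate-generating enzyme ENPP1 followed COL10A1 in size. IHH had levels of -1.04, -1.21, -1.43 and -2.26 at 2 weeks and -0.97, -0.07, -0.58 and 1.89 at 1 week, a difference of -1.55 ± 0.61 (SE, adjusted p = 0.148). PTH1R, the receptor for parathyroid hormone-related protein, had levels of 4.84, 4.85, 4.68 and 4.31 at 2 weeks and 4.97, 5.27, 5.46 and 7.43 at 1 week, a difference of -1.11 ± 0.39 (adjusted p = 0.106). Neither gene overlapped between groups, and 1-week replicate 4 was the highest array in both. Over the 14 hyaline and hypertrophy genes, 1-week replicate 4 was the highest 1-week array in 10. The ENPP1 groups overlapped, with a difference of -0.98 ± 0.39 (adjusted p = 0.153). RUNX2, the master transcription factor of bone, differed by -0.48. The collagenase MMP13, osteopontin (SPP1), PTHLH, VDR and the type I collagen chain COL1A2 differed by 0.33, 0.01, 0.15, 0.03 and 0.02.

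**Figure D4:**
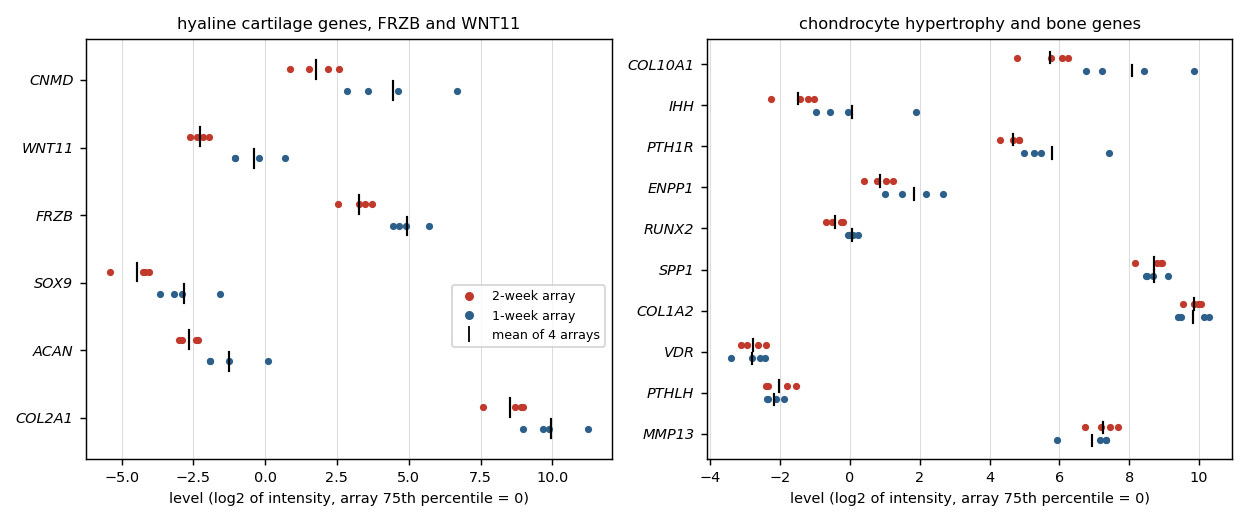
Level of each array (log2, 75th percentile of the array = 0, x axis) for the hyaline cartilage genes with FRZB and WNT11 (left) and for the chondrocyte hypertrophy and bone genes (right), with red 2-week points above blue 1-week points and a bar at each mean. In all 6 genes on the left the 2-week arrays lie below the 1-week arrays, and on the right COL10A1, IHH, PTH1R and RUNX2 do so while ENPP1, SPP1, COL1A2, VDR, PTHLH and MMP13 overlap.

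FRZB, a secreted WNT antagonist abundant in articular cartilage, was the cartilage-related gene that did fall. Its levels were 3.73, 3.27, 3.49 and 2.52 at 2 weeks and 4.45, 4.89, 4.65 and 5.72 at 1 week. The groups did not overlap, with the lowest array in the 2-week group and the highest in the 1-week group each being replicate 4. FRZB fell by 1.68 ± 0.42 (SE, adjusted p = 0.021), a call lost without 1-week replicates 2 or 3 and kept without replicate 4 (difference -1.41, adjusted p = 0.0162). All 7 of its probes were lower (-1.74 to -1.54) and 6 were called. The probe that stands for the gene and a called neighbour overlap by 30 bases, in capitals:
FRZB, probe that stands for the gene: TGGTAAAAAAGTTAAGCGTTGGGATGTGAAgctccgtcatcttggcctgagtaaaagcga
FRZB, neighbouring probe: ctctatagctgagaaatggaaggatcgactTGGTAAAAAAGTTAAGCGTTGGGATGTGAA
The neighbour averaged 1.99 ± 0.61 at 2 weeks and 3.56 ± 0.49 at 1 week (SD, n = 4 each), and differed by -1.58 ± 0.46 (adjusted p = 0.0488). FRZB averaged 3.63 ± 0.33 in controls, 4.95 ± 0.44 at 4 weeks and 3.57 ± 0.63 at 8 weeks.

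In the WNT and hedgehog list as a whole, 1 of 8 measured genes rose (WNT3) and 1 fell (FRZB). The ligand WNT11 had levels of -2.15, -1.97, -2.36 and -2.61 at 2 weeks and -1.04, -0.22, -1.04 and 0.68 at 1 week. These did not overlap, but the difference of -1.87 ± 0.61 was not called (adjusted p = 0.0785). The antagonists SFRP2 and DKK1, the coreceptor LRP5 and the signal transducer CTNNB1 differed by -0.19, 0.15, 0.2 and -0.08. None of 6 TGF-beta and BMP genes was called, with a median of 0.07. In this list BMP7 had 2-week levels (1.17, 1.37, 1.46 and 1.56) above all 1-week levels (0.57, 0.59, 1.06 and 0.45), a difference of 0.72 ± 0.41 (adjusted p = 0.324).

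Growth factors and their receptors showed no called rise. Of 9 measured genes, 1 fell and 0 rose, 6 differences were positive, 3 were negative and the median was 0.95. FGF7, EGFR and HBEGF, with differences of 1.58, 1.36 and 1.6, passed the filter through the 2-week group alone. They were above background on at most 1, 1 and 2 of the 1-week arrays. The filter thus favoured positive differences in these genes, and the median carries that. IGF1, insulin-like growth factor, had levels of 0.93, 1.57, 1.67 and 2.23 at 2 weeks and 0.92, 0.24, 0.79 and -1.09 at 1 week, a difference of 1.39 ± 0.44 (adjusted p = 0.0759). The groups all but touched, and replicate 4 was the highest 2-week and the lowest 1-week array. The growth hormone receptor GHR differed by 0.95 ± 0.3 (adjusted p = 0.0683) and the EGF-family ligand HBEGF by 1.6 ± 0.73 (adjusted p = 0.222), with no overlap in either. The IGF1 receptor gene IGF1R was the called one, and it fell by 0.49 ± 0.14 (SE, adjusted p = 0.0394). Its levels were -1.64, -1.38, -1.37 and -1.74 at 2 weeks and -1.16, -1.11, -1.28 and -0.62 at 1 week. The IGF1R call was lost without 2-week replicates 1 or 4 or without 1-week replicates 1, 2 or 3.

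Fibrous matrix genes and matrix proteases showed 0 rises. None of 10 fibrous genes was called, with a median of 0.02. The small proteoglycans DCN and LUM differed by 1.1 ± 0.47 (adjusted p = 0.188) and 0.77 ± 0.39 (adjusted p = 0.277). Decorin levels were 5.97, 5.97, 6.05 and 6.41 at 2 weeks and 5.64, 5.26, 5.73 and 3.38 at 1 week, where replicate 4 lay far below the others. Of 23 proteases and inhibitors, SERPINB2 was the 1 called. The urokinase gene PLAU and the stromelysin MMP3 differed by 0.43 ± 0.28 (adjusted p = 0.4) and -0.2 ± 0.3 (adjusted p = 0.756). The protease inhibitor TIMP2 had 2-week arrays above all 1-week arrays, a difference of 0.35 ± 0.16 (adjusted p = 0.226).

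Of the inflammatory mediators, 1 of 18 fell and 0 rose, with a median of -0.19. The neutrophil-attracting chemokine CXCL8 had levels of -2.49, -2.27, -2.15 and -1.65 at 2 weeks and -1.51, -0.9, -0.26 and -0.27 at 1 week. It fell by 1.41 ± 0.31 (SE, adjusted p = 0.00933), with little room between the groups, and lost the call without 1-week replicate 3. Of its 4 passing probes, 1 was called, and the differences ran from -1.41 to 0.58. The called probe and its neighbour, shown because they share 59 of 60 bases (in capitals), gave unlike differences:
CXCL8, called probe: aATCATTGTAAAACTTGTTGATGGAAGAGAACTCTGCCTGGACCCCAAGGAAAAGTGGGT
CXCL8, neighbouring probe: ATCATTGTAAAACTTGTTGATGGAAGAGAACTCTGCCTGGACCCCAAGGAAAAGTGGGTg
The called probe averaged -2.14 ± 0.36 at 2 weeks and -0.73 ± 0.6 at 1 week, and the neighbour -1.97 ± 0.36 at 2 weeks and -1.18 ± 0.39 at 1 week (SD, n = 4 each). The neighbour differed by -0.79 ± 0.3 (adjusted p = 0.131). TNF differed by -0.73 ± 0.33 (adjusted p = 0.219) and IL18, a cytokine of the interleukin-1 family, by 0.84 ± 0.3 with no overlap (adjusted p = 0.11).

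Several markers of blood cells spread widely among the 2-week rabbits, and 1 fell. The neutrophil receptor for CXCL8, CXCR2, was the 1 called gene of 5 measured neutrophil markers. Its levels were -2.08, -1.38, -1.42 and -1.72 at 2 weeks and -0.41, -0.2, -0.19 and 0.44 at 1 week, a fall by 1.56 ± 0.21 (SE, adjusted p = 0.00014) that held without any 1 array. CXCR2 averaged -1.64 ± 0.27 in controls, -0.3 ± 0.19 at 4 weeks and -0.51 ± 0.1 at 8 weeks, again split by scan day. The granule and cytosol markers did not follow it. S100A8, a calcium-binding protein abundant in neutrophils, had levels of -1.6, -1.71, 2.52 and 4.72 at 2 weeks and 0.15, -1.5, 0.56 and 0.71 at 1 week (difference 1.01 ± 2.13, adjusted p = 0.834). The antimicrobial peptide CAMP had levels of -4.83, -2.9, 1.94 and 3.86 at 2 weeks and -1.06, -3.64, -1.4 and -1.63 at 1 week (difference 1.45 ± 2.51, adjusted p = 0.79). In both genes replicates 3 and 4 of the 2-week group lay far above replicates 1 and 2. A wide spread was not particular to 2 weeks. The median level of the 5 neutrophil markers on an array ran from -2.2 to 3.86 at 2 weeks and from -0.9 to -0.19 at 1 week. It ran from 0.05 to 3.93 in controls and from -0.32 to 4.76 at 4 weeks.

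IL1B, an inflammatory cytokine of myeloid cells, had its highest value on the same 2-week array, with levels of -3.6, -3.7, -2.22 and -1.11 at 2 weeks and -2.73, -3.25, -3.03 and -2.09 at 1 week. Its difference was 0.12 ± 0.85 (SE, adjusted p = 0.957). Red cell transcripts varied more at 2 weeks than at 1 week. The haemoglobin chain HBA had levels of 6.38, 3.78, 5.86 and 7.46 at 2 weeks, with replicate 2 lowest, and of 6.52, 6.82, 6.27 and 6.84 at 1 week. Of 3 erythroid genes none was called. None of 5 macrophage, 8 osteoclast, 8 endothelial or 4 smooth muscle genes was called either. The osteoclast enzymes ACP5 and CTSK differed by -0.57 ± 0.29 (adjusted p = 0.265) and 0.67 ± 0.34 (adjusted p = 0.271). In bulk cartilage, fewer cells of a type and less RNA per cell cannot be told apart. The part of these markers in the other results was not tested.

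**Figure D5:**
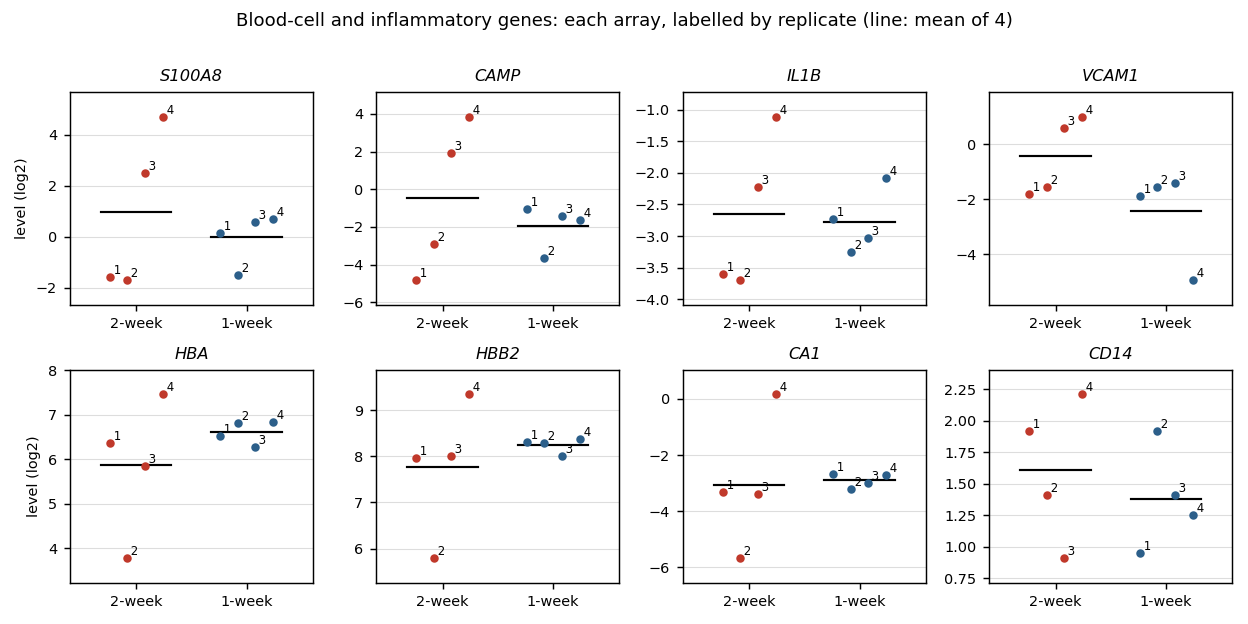
Level of each array (log2, y axis) for 8 genes of blood cells, vessels and inflammation, with the 2-week group left of the 1-week group, points labelled by replicate number and a line at each mean. S100A8 and CAMP are high in 2-week replicates 3 and 4 (2.52 and 4.72, 1.94 and 3.86), and HBA, HBB2 and CA1 are lowest in 2-week replicate 2 and highest in replicate 4.

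The lymphocyte surface gene CD5 was not well above background on any 2-week array and was so on 3 of 4 1-week arrays, which bounds its level at 2 weeks as at least 1.7-fold lower, without a call (adjusted p = 0.0501).

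Genes of fat and lipid transport held 4 of the called falls among 12 measured, with 0 rises and a median of -0.48, against 49 falls in 697 named genes (7.03%). Besides APOC4 and PPARA these were LEP, the adipocyte hormone leptin, and APOA1, the main protein of high-density lipoprotein. All 4 passed the filter through the 1-week group alone, PPARA with at most 2 of the 2-week arrays above background. The filter thus favoured falls in these genes, and their share is not evidence of a change in lipid genes as a set. LEP had levels of -3.48, -3.06, -4.97 and -4.27 at 2 weeks, 2 of them above background, and of -2.15, -2.68, -2.56 and -1.91 at 1 week, a fall by 1.62 ± 0.44 (SE, adjusted p = 0.0335). It lost the call without 5 of the 8 arrays. APOA1 had levels of -5.92, -5.5, -4.8 and -5.37 at 2 weeks and -5.28, -2.46, -3.33 and -0.44 at 1 week. The groups overlapped, the 1-week arrays ranged widely and 3 of them were above background. APOA1 was at least 1.87-fold lower at 2 weeks (adjusted p = 0.0493) and kept its call in 1 of 8 fits that left out an array. PPARG, the adipocyte master regulator, differed by 0.67.

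Skeletal muscle genes, a check for muscle attached to the condyle, gave 1 called gene (PLN) of 17 measured and a median of -0.41. The alpha-actin of muscle, ACTA1, and tropomyosin TPM1 lay higher on all 2-week arrays, with differences of 1.43 ± 0.68 (adjusted p = 0.242) and 0.74 ± 0.34 (adjusted p = 0.227). JPH1, a junctophilin that couples muscle membranes, differed by -1.85 ± 0.55 (adjusted p = 0.0544), with all 7 of its probes lower. The giant sarcomere protein TTN was well above background on 2 of 4 arrays of either group at most and was not tested.

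In the hypoxia and glycolysis list 6 of 7 differences were negative (median -0.49) and none was called. The glucose transporter SLC2A1 had levels of 1.37, 0.58, 0.52 and 0.11 at 2 weeks and 1.38, 1.77, 1.34 and 3.56 at 1 week, a difference of -1.37 ± 0.47 (SE, adjusted p = 0.1). Among glycolytic enzymes, LDHA, GPI and GAPDH differed by -0.92 ± 0.43, -0.7 ± 0.28 and -0.49 ± 0.29 (adjusted p = 0.237, 0.157 and 0.362), with no overlap in GPI alone. Of 5 connexins GJA10 was the 1 called. The connexin of chondrocytes and bone, GJA1, differed by 0.47 ± 0.27 (adjusted p = 0.326). In the immediate early and stress list of 8 measured genes, 2 rose, SOD2 among them, and 1 fell, the transcription factor EGR1. EGR1 fell by 1.54 ± 0.4 (adjusted p = 0.0275) with overlapping groups and a 1-week level above background on all 4 arrays, against 1 of 4 at 2 weeks. The EGR1 call was lost without 5 of the 8 arrays. The calls of EGR1, LEP, APOA1 and IGF1R were lost with the 8 arrays alone and after quantile normalization. HAS2, a hyaluronan synthase of joint tissues, differed by -1.5 ± 0.44 with no overlap (adjusted p = 0.0514). None of 3 secretory chaperone genes or 4 cell cycle genes was called, with medians of -0.02 and 0.21. The folding chaperone HSP90B1 and the cyclin-dependent kinase CDK4 differed by -0.02 ± 0.18 and 0.01 ± 0.17.

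Solute carriers and potassium channels, grouped by their symbols after the values were seen, are given as counts with no test, beside the 7.03% of all named genes that fell. Of 33 measured SLC genes, 6 fell, with a median difference of -0.01. The 6 were SLC4A4, the thiazide-sensitive sodium chloride cotransporter SLC12A3, the organic anion transporter SLC22A6, the nucleoside transporter SLC29A2, the sodium-glucose cotransporter SLC5A1 and SLC47A2. SLC12A3, a carrier of the kidney's distal tubule, was at least 2.41-fold lower at 2 weeks (adjusted p = 2.23e-05). Of 15 measured potassium channel genes, 4 fell (KCNA5, KCNE1, KCNJ11 and KCNK3) and 1 rose (KCNQ1), with a median of -0.16. KCNJ11, the pore of ATP-sensitive potassium channels, fell by 1.6 ± 0.2 (SE, adjusted p = 8.05e-05), with 1 of the 2-week arrays and all 4 of the 1-week arrays above background. KCNE1, the accessory subunit that assembles with KCNQ1, was at least 2.05-fold lower (adjusted p = 0.0144). At least SLC12A3, KCNE1 and KCNJ11 passed the filter through the 1-week group alone. The filter thus favoured falls in these genes, and the counts are not evidence of a change in either family. KCNJ11 averaged -3.61 ± 0.29 at 2 weeks and -2.01 ± 0.41 at 1 week (SD, n = 4 each), with -3.18 ± 0.25 in controls, -2.26 ± 0.09 at 4 weeks and -2.02 ± 0.17 at 8 weeks.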

How the data were processed

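Total RNA of 20 cartilage samples was hybridised to one-colour 60-mer arrays, and per the file headers the deposited intensity of each spot is the processed signal. Per the submitters' processing notes it was made with Agilent Feature Extraction 10.7.1.1. The authors' deposited value table holds the same intensity values for 16 arrays, while its 8-week columns match other arrays of that group, and it was used as an alternative. Here log2 of the processed signal minus each array's 75th percentile was taken, after outlier spots (5 to 62 per array) were left out and repeated spots averaged. Neither coordinates nor a genome build were used.

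A probe was kept if well above background on at least 3 of 4 arrays of the 2-week or the 1-week group (25365 of 43603 probes). Group means of all 20 arrays were fitted with limma 3.58.1 (R 4.3.3) with 1 variance weight per group (0.521 for 1 week, 1.04 for 2 weeks), two-sided, with Benjamini-Hochberg adjustment over the kept probes. P-values measure the spread between the arrays of a group. The number of arrays limits the precision. In simulated data for this comparison (25268 probes) the fit found 50 of 100 changes of 1 log2 unit and 90 of 100 changes of 2, with 11 false calls. The simulated noise was drawn independently for each probe, with no background floor and no offset of scan day or slide. The false calls there thus do not measure those among the real calls.

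Names came from the files and a RefSeq table of rabbit genes (mOryCun1.1, names only): 3202 probes, 1044 genes, 697 of them measured. A gene's value is its brightest kept probe. For a probe that no array of a group measured well above background, the fold is a bound, taken from the bright group's mean and the dim group's mean after each dim array was lifted to its lowest measured level wherever the probe lay under that. The text names the 12 largest called rises and falls without overlap, up to 4 members of each list with the lowest p, a set panel, and genes of which it says so. Other members of the hypertrophy and WNT lists were named after their values were seen. So were PPARG, FGF7, EGFR, YBX1 and the solute carrier and potassium channel genes. A few results under this rule are not reported here. The members and lists were chosen with earlier results of these data known. Printed probe sequences are those of the deposited files. Each replicate number was checked for pairing: same-numbered arrays of the groups correlated at 0.28, 0.0237, 0.0971 and -0.117 in their deviations, so no block was used in the main model. Scan day and slide could not be fitted, since each group lies on 1 day and 1 slide.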

Additional observations from a re-analysis of the deposited data

Results flagged for a closer look

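Of 214 groups of 4 arrays examined for the named genes, 9 (4.21%) held an array whose gap to the nearest other array exceeded Dixon's critical share of the group's range, and chance gives about 1 in 20. In 5 cases the distant array was replicate 4 of the 1-week group, the array of lowest signal. It was highest for GJA10 (-2.1, others -2.67 to -2.65) and lowest for VCAM1 (-4.94, others -1.87 to -1.4), GPX1 (5.04, others 5.63 to 5.73), MMP13 (5.92, others 7.15 to 7.34) and CD86 (-4.79, others -3.45 to -3.28). Replicate 1 of the 2-week group was lowest for the chloride channel CLCN7 (4.57, others 5.19 to 5.25). It was highest for thrombomodulin, THBD (2.09, others 0.69 to 0.78), and for smooth muscle actin, ACTA2 (1.56, others 0.08 to 0.24). Replicate 3 of the 2-week group was lowest for calreticulin, CALR (8.38, others 8.57 to 8.59), where the whole range is small.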

How the results depend on the processing

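The main model called 1587 probes (424 higher, 1163 lower) and 64 named genes (15 higher, 49 lower). Equal weights gave 2979 probes (1067 higher, 1912 lower) and 39 genes higher. Normexp gave 0 probes and 0 genes in either direction, with 606 probes at an unadjusted p under 0.05, and the cause was not tested. Keeping probes well above background on all 8 arrays, which tests fewer, gave 724 probes (240 higher, 484 lower) and 9 and 21 genes. Fitting the 8 arrays alone gave 233 probes higher. No filter gave 133 probes and 2 genes higher, and a floor at the lowest measured signal gave 9 genes higher. Asking also for a log2 difference of at least 1 gave 969 probes (155 higher) and 7 genes higher. Replicate numbers did not pair the arrays. The model with the replicate number as a block gave 657 probes and 27 genes higher, and all 64 genes kept their call.

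Leaving out 1 array gave 777 to 2135 probes, 131 to 820 higher and 646 to 1315 lower, with 2 to 26 genes higher and 26 to 53 lower. The lowest counts came without 1-week replicate 2 (777 probes, 28 of 64 genes kept) or replicate 3 (865 probes, 32 kept), and the highest without 1-week replicate 4. The number higher moved by over 1.5 times without any 1 array other than 2-week replicate 1 for probes (514) and 2-week replicates 3 and 4 for genes (12 and 11). All 64 called genes kept their direction under each alternative in which they were measured, except 1 gene under normexp and 1 when the median of a gene's probes was used. Of the 64 calls, no filter kept 30, the 8 arrays alone 40, the floor 44, quantile normalization 47, the median of a gene's probes 55, median centring 62 and normexp 0, while all 64 were kept with equal weights and from the value table. Centring on the median of the kept probes gave 500 higher and 1111 lower probes. Signal over background limits the dim falls: 15 of 49 fallen genes have only a bound at 2 weeks, and 22 were well above background on all 8 arrays. The size of dim falls also depended on the background correction. Under normexp the difference was -0.48 for GJA10 (main model -3.04), -0.7 for APOC4 (-2.62) and -0.5 for SERPINB2 (-2.81). In the brighter genes FRZB and GYG1 it was -1.87 and -2.11.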

Other observations

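MYOC, myocilin, a secreted protein of the eye's outflow tissue and of connective tissues, had levels of 0.43, -1.68, -2.18 and -3.41 at 2 weeks and -7.17, -6.03, -6.56 and -5.02 at 1 week. No 1-week array and 3 of 4 2-week arrays were well above background, which bounds MYOC as at least 4.95-fold higher at 2 weeks, without a call (adjusted p = 0.268). MLNR, the receptor of the gut hormone motilin, fell by 3.15 ± 0.69 (SE, adjusted p = 0.00909), with overlapping groups and 1 of 4 2-week arrays above background. The relaxin gene RLN1 reached 1.45 on 2-week replicate 1 and lay between -4.6 and -1.66 on the other 2-week arrays, against -5.98 to -1.52 at 1 week. These 3 genes were picked after their values were seen.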
